A study of Mus musculus with 16 samples.

Results

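Cyclic AMP (cAMP) signalling in the medial prefrontal cortex (mPFC) was described through 63 genes whose symbols match those of its core machinery. They were taken from the annotated genes by symbol alone: the adenylyl cyclases (Adcy followed by a number), the catalytic and regulatory subunits of protein kinase A (Prkaca, Prkacb and the 4 Prkar genes), the phosphodiesterases (Pde followed by a number), the A-kinase anchoring proteins (Akap followed by a number), and Creb1, Crem, Atf1 and Crtc1 to Crtc3. The 63 members stand among 26625 entries of the gene table, of which 19069 are annotated genes. Of the members, 54 had enough reads to be tested and 9 did not. The symbols also brought in genes that do not act on cAMP, and these are named where they appear.

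The mice were male C57BL/6 animals of 8 to 10 weeks. An adeno-associated virus was injected into the mPFC on both sides and expressed, from the U6 promoter, either a negative-control shRNA (Ctrl) or an shRNA against the histone demethylase gene Kdm7a (Kdm7a-shRNA), together with EGFP from a CMV promoter. The U6 promoter is not specific to a cell type, so infected neurons and glia cannot be told apart in these libraries. In a place preference task each mouse was then conditioned with saline or with 10 mg/kg of morphine. The tissue was taken on day 7 of withdrawal, directly after a second preference test. Full-length cDNA was read by nanopore sequencing in 1 library per mouse. The 7 control libraries were 3 from saline mice (Ctrl + Saline) and 4 from morphine mice (Ctrl + Morphine), and the 9 knockdown libraries were 5 from saline mice (Kdm7a-shRNA + Saline) and 4 from morphine mice (Kdm7a-shRNA + Morphine). They held 6596991 to 12418112 reads each, and of these the 63 members took 0.266% to 0.404%. Kdm7a itself, the target of the shRNA, measured 9.78, 9.08 and 9.41 normalized CPM in Ctrl + Saline, 7.79, 6.19, 8.89 and 8.02 in Ctrl + Morphine, 5.74, 4.95, 6.04, 6.07 and 4.92 in Kdm7a-shRNA + Saline, and 6.28, 4.44, 3.01 and 6.04 in Kdm7a-shRNA + Morphine. All 5 Kdm7a-shRNA + Saline mice lay below the 3 Ctrl + Saline mice, and only Kdm7a-shRNA + Morphine replicate 1 (6.28) overlapped the Ctrl + Morphine mice. The fitted log2 fold change of Kdm7a was -0.76 (SE 0.204, adjusted p = 0.0153) under saline and -0.67 (SE 0.206, adjusted p = 0.0506) under morphine, from edgeR's quasi-likelihood test.

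In this pathway, adenylyl cyclases make cAMP from ATP when stimulatory G proteins, calcium or bicarbonate engage them, and opioid receptors hold them back through inhibitory G proteins. cAMP binds the regulatory subunits of protein kinase A (PKA) and frees the catalytic subunits, anchoring proteins hold the kinase near its substrates, and phosphodiesterases degrade the messenger. In the nucleus PKA phosphorylates CREB, which binds the cAMP response element (CRE) of target genes, while CREM gives rise to activators and, from an internal promoter, to the early repressor ICER. A compensating rise of this pathway is a classic observation in brain regions after long opioid exposure, and CREB activity in the cortex is tied to the storage of memory. The tissue libraries hold many cell types, so a lower or higher value can be more or fewer cells of a type or more or less RNA per cell, and these cannot be told apart.

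Because CREB acts through the CRE, the promoter windows of the members were read for its letters. RefSeq (build GRCm38.p6) gave windows of 300 bases, 250 before and 50 after a start site, for 50 of the 63 members (92 windows). The full element TGACGTCA, the same on both strands, was in the windows of 1 member, Prkar1a (2.0% of the members against 2.03% of all 27025 genes with a window). The 5-base element TGACG, searched as TGACG and CGTCA and also held inside every full element, was in 17 members (34.0% against 23.0% of all genes), but by window the shares were 20.7% and 20.8%. Shown here are a Prkar1a window with the full element and a window each of Adcy7 and Pde8b with the 5-base element. Adcy7 and Pde8b are members that differed between knockdown and control mice. The Prkar1a element begins 49 bases before the start site of the window shown, and the same element begins 38 bases after the start site of another, overlapping window. In the windows shown, the 5-base element begins 28 bases before the start site in Adcy7 and 38 bases after it in Pde8b. Adcy7 has other windows, at start sites further along the gene, and they do not hold the element. Capitals mark the elements, each sequence runs 5′ to 3′ on the strand of its gene, and a match is a description of letters only.
Prkar1a (chr11:109650699-109650998, plus strand): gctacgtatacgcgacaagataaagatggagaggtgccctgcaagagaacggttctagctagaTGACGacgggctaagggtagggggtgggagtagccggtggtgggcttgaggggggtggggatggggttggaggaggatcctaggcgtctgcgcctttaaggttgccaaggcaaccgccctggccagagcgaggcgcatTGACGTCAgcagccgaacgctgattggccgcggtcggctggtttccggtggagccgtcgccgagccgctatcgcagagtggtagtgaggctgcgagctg
Adcy7 (chr8:88282742-88283041, plus strand): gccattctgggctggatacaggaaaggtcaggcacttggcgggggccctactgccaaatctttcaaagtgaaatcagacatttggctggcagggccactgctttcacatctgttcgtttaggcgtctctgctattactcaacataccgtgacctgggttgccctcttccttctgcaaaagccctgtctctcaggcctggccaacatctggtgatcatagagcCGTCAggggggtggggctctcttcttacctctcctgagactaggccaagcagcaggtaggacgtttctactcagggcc
Pde8b (chr13:95223001-95223300, minus strand): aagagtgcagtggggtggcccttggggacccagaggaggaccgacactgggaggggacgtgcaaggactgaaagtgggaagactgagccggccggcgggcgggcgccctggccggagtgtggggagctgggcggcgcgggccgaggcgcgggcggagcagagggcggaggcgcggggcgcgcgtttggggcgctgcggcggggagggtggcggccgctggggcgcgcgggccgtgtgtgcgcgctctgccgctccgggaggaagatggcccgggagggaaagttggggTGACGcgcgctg

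Knockdown under saline gave the most calls among the members. Of the 54 tested, 6 passed (adjusted p below 0.05 and a fold change of at least 1.5), 5 higher and 1 lower in Kdm7a-shRNA + Saline than in Ctrl + Saline. That is 11.1% of the members, against 16.7% of all 18826 entries tested (7.43% higher and 9.31% lower). Among the 14162 annotated genes tested, the class the members belong to, the share was 12% (9.0% higher and 2.98% lower). Higher were Crem, Adcy7, Pde8b, Pde1b and Pde6d, and lower was Akap9. At an unadjusted p below 0.05 there were 15 members, 27.8% against 34.7% of all entries and 30.2% of annotated genes, 7 higher and 8 lower. The median log2 fold change of the members was 0.08, beside 0.01 over all entries and 0.10 over annotated genes. The split depended on the scaling: with library size in place of the TMM factors, 3 members passed higher and 4 lower, the median of the members was -0.05 and that of all genes -0.12. With annotated genes and annotated long noncoding RNA genes only, and with at least 10 counts in every mouse, 4 passed higher and 2 lower. Pde8b left and Pde2a joined the calls in both. The count rested on the small control group as well, since 2 members (Adcy7 and Crem) passed without Ctrl + Saline replicate 3 and 3 (with Pde8b) without replicate 2.

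Under morphine, none of the 54 members passed in Kdm7a-shRNA + Morphine against Ctrl + Morphine, where 7.69% of all entries and 4.64% of annotated genes did. At an unadjusted p below 0.05 there were 7 members (13.0% against 25.5% and 21.7%), with Crem (log2 fold change 0.58, adjusted p = 0.0668) and Pde2a (-0.57, adjusted p = 0.0653) nearest to the threshold. DESeq2 called Crem, scaling by library size alone called Pde2a, and without Kdm7a-shRNA + Morphine replicate 4 Pde2a and Pde3b passed. No mouse is shared between these knockdown comparisons, and 32 of the 54 members (59.3%) had the same sign in both, beside 67.9% of all entries and 65.3% of annotated genes. When the knockdown difference was averaged over saline and morphine, using all 9 Kdm7a-shRNA and 7 Ctrl mice, 3 members passed (5.56% against 17.6% of all entries and 11.3% of annotated genes), Crem, Adcy7 and Pde3b, all higher. By adjusted p alone there were 7 (13.0% against 27.6% and 22.8%), the other four being Pde8b, higher, and Pde2a, Akap9 and Akap11, lower. At an unadjusted p below 0.05 there were 12 members (22.2% against 38.8% and 34.7%). With library size in place of TMM, 1 member passed, Pde2a, which was lower. With annotated and long noncoding RNA genes only, and with at least 10 counts in every mouse, 2 passed higher (Adcy7 and Crem) and 1 lower (Pde2a). With a trend on transcript length removed, 2 passed higher (Adcy7 and Pde3b) and 1 lower (Pde2a), and without Ctrl + Saline replicate 1 only Pde6d passed.

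**Figure D1:**
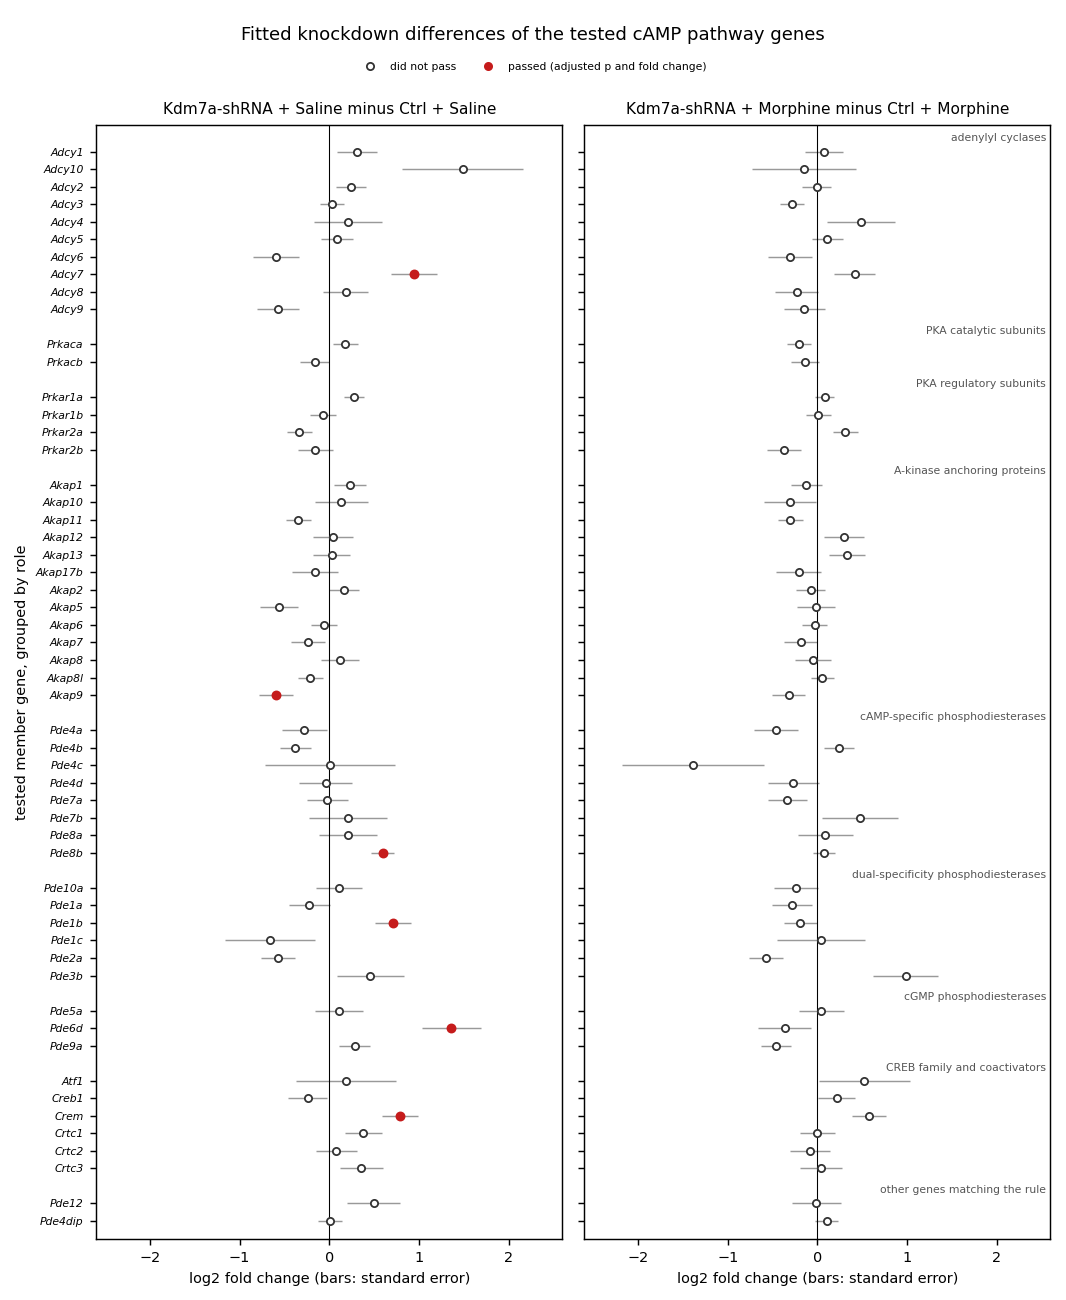
Fitted log2 fold change (x axis) of each of the 54 tested members, grouped by role (y axis), in Kdm7a-shRNA + Saline minus Ctrl + Saline (left) and Kdm7a-shRNA + Morphine minus Ctrl + Morphine (right), with bars for the standard error and filled points for members that passed. The 6 filled points, Adcy7, Akap9, Pde8b, Pde1b, Pde6d and Crem, are all on the left, and the right panel has none.

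Among the 10 adenylyl cyclases, all of them tested, Adcy7 alone passed in a comparison. Adcy7 is a membrane cyclase that responds to G protein beta-gamma subunits and is known from immune cells and microglia as well as brain. It measured 4.10, 5.66 and 6.49 normalized CPM in Ctrl + Saline, 7.79, 7.90, 8.16 and 9.95 in Ctrl + Morphine, 7.93, 10.8, 13.9, 8.32 and 11.3 in Kdm7a-shRNA + Saline, and 14.7, 8.87, 14.2 and 7.25 in Kdm7a-shRNA + Morphine. The Ctrl + Saline mice were the lowest of all and overlapped no other group, the Ctrl + Morphine mice overlapped both shRNA groups, and 5 of the 9 shRNA mice lay above every control. For this gene and those below, the share of all entries in which such small groups do not overlap was not counted. Its log2 fold change was 0.94 under saline (SE 0.256, a 1.92-fold difference, adjusted p = 0.0161) and 0.42 under morphine (SE 0.233, adjusted p = 0.279), and the average was 0.68 (SE 0.173, adjusted p = 0.00716). Adcy7 lies on chromosome 8, plus strand, from 88272403 to 88329962 (mm10). Leaving out Ctrl + Saline replicate 1, its lowest mouse, ended both calls (log2 fold change 0.74 with adjusted p = 0.0784 under saline, and 0.58 for the average).

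Microglial marker genes were higher in the same comparison as Adcy7. The summed level of 5 microglial markers (Csf1r, Cx3cr1, P2ry12, Tmem119 and C1qa), none of them at 0, was 580.2, 479 and 547 normalized CPM in Ctrl + Saline, 510.0, 273, 464 and 463 in Ctrl + Morphine, 966, 1472, 2046, 709 and 1526 in Kdm7a-shRNA + Saline, and 832, 701, 1866 and 482 in Kdm7a-shRNA + Morphine. All 5 Kdm7a-shRNA + Saline mice and 3 of the 4 Kdm7a-shRNA + Morphine mice were above every control. The sums were largest in Kdm7a-shRNA + Saline replicates 3, 5 and 2 and Kdm7a-shRNA + Morphine replicate 3, where Adcy7 measured 13.9, 11.3, 10.8 and 14.2, and the mouse with the highest Adcy7 (14.7) had a sum of 832. Of the 5 markers, 4 passed as higher under saline and 2 under morphine. The astrocyte sum (Gfap, Aqp4, Aldh1l1, Slc1a3, Gja1 and Sox9) was 357 to 504 in Ctrl + Saline, 279 to 513 in Ctrl + Morphine, 489 to 1038 in Kdm7a-shRNA + Saline and 398 to 1004 in Kdm7a-shRNA + Morphine. The part of these cell types in the Adcy7 values was not tested.

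**Figure D2:**
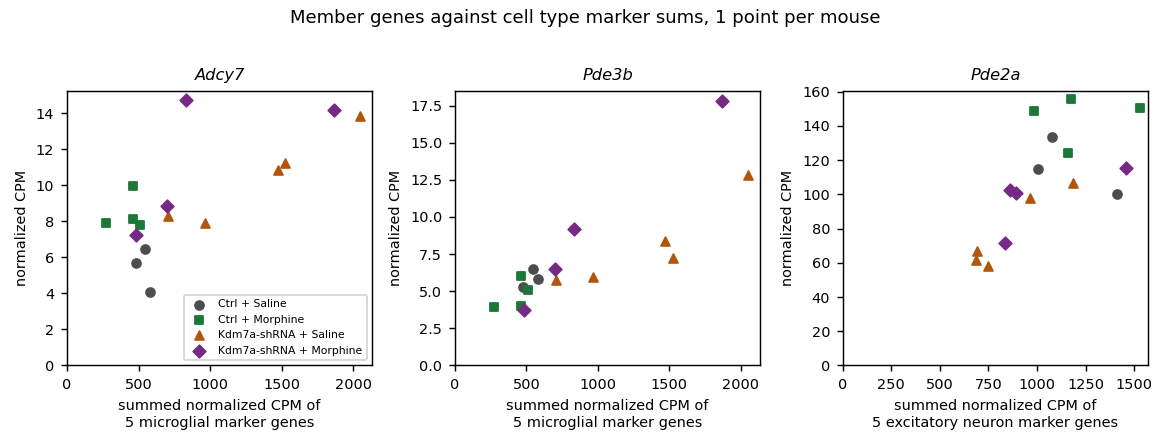
Normalized CPM of Adcy7, Pde3b and Pde2a (y axes) in each of the 16 mice against the summed normalized CPM of 5 microglial (left and middle) or 5 excitatory neuron marker genes (right, x axes), with colour and shape for the group. Kdm7a-shRNA + Saline replicate 3 and Kdm7a-shRNA + Morphine replicate 3, with microglial sums of 2046 and 1866, held Pde3b at 12.8 and 17.8, above the other 14 mice.

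The other nine cyclases did not pass in any comparison. Adcy3 and Adcy1 held the most reads of the class. Adcy1, a calcium-calmodulin stimulated cyclase of neurons, measured 32.6, 31.8 and 28.2 normalized CPM in Ctrl + Saline, 37.0, 61.2, 34.4 and 36.7 in Ctrl + Morphine, 49.5, 31.7, 31.2, 45.7 and 33.5 in Kdm7a-shRNA + Saline, and 50.1, 35.97, 33.8 and 59.0 in Kdm7a-shRNA + Morphine. The highest values, 61.2, 59.0 and 50.1, were spread over Ctrl + Morphine and Kdm7a-shRNA + Morphine, and the groups overlapped. Adcy3, a cyclase of olfactory and neuronal cilia, shares exonic bases with Cenpo on the other strand, so its reads may be mixed if strand was not used. It was between 35.5 and 52.9 in all 16 mice, with log2 fold changes of 0.03 (SE 0.135) under saline and -0.28 (SE 0.131, adjusted p = 0.181) under morphine. Lower under saline at an unadjusted p below 0.05 were Adcy6 (log2 fold change -0.59, SE 0.256, adjusted p = 0.109) and Adcy9 (-0.57, SE 0.238, adjusted p = 0.0982), and higher was the bicarbonate-sensitive soluble cyclase gene Adcy10 (1.49, SE 0.672, adjusted p = 0.124), whose level was 0.132 to 3.60.

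The PKA holoenzyme did not pass in any of the comparisons. None of the 2 catalytic and 4 regulatory subunit genes was called, and their log2 fold changes lay between -0.34 and 0.28 under saline and between -0.37 and 0.31 under morphine. Prkar1a, the most read member and the gene of the ubiquitous type I alpha regulatory subunit, measured 957, 925 and 906 normalized CPM in Ctrl + Saline, 1165, 1283, 1002 and 1013 in Ctrl + Morphine, 1317, 1083, 1040.2, 1159.6 and 1026 in Kdm7a-shRNA + Saline, and 1215, 1117, 1108 and 1285 in Kdm7a-shRNA + Morphine. The 3 Ctrl + Saline mice were the lowest of the 16 and overlapped no other group (the share of all entries that do so was not counted). Its differences were small, with log2 fold changes of 0.28 (SE 0.109, adjusted p = 0.0796) for knockdown under saline and 0.26 (SE 0.113, adjusted p = 0.365) for morphine in control mice. Prkar1b, the neuronal type I beta subunit, was between 586 and 974, with the 3 lowest values in Kdm7a-shRNA + Saline replicates 2, 3 and 5. Its log2 fold change was -0.07 (SE 0.145) under saline and 0.01 (SE 0.14) under morphine.

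Prkar2a, a type II regulatory subunit that binds anchoring proteins, had the smallest unadjusted p of the subunit genes in the test of whether knockdown depended on morphine. It measured 16.1, 15.8 and 17.1 normalized CPM in Ctrl + Saline, 13.7, 12.6, 14.2 and 12.9 in Ctrl + Morphine, 11.7, 13.0, 12.1, 14.6 and 13.2 in Kdm7a-shRNA + Saline, and 19.9, 18.3, 14.6 and 13.7 in Kdm7a-shRNA + Morphine. Ctrl + Saline lay above Ctrl + Morphine and above Kdm7a-shRNA + Saline without overlap, while Kdm7a-shRNA + Morphine reached from 13.7 to 19.9. The knockdown difference was -0.34 on the log2 scale under saline (SE 0.14, adjusted p = 0.0969) and 0.31 under morphine (SE 0.137, adjusted p = 0.158), and the difference between them was 0.65 (SE 0.196, adjusted p = 0.198), which did not pass. Prkar2b, the type II beta subunit of brain and fat, had log2 fold changes of -0.16 (SE 0.197) under saline and -0.37 (SE 0.19, adjusted p = 0.233) under morphine. Of the catalytic subunit genes, Prkaca was 38.8 to 63.9 and Prkacb 166 to 297 in the 16 mice, with log2 fold changes of 0.18 (SE 0.141) and -0.16 (SE 0.161) under saline and -0.21 (SE 0.136) and -0.14 (SE 0.157) under morphine.

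**Figure D3:**
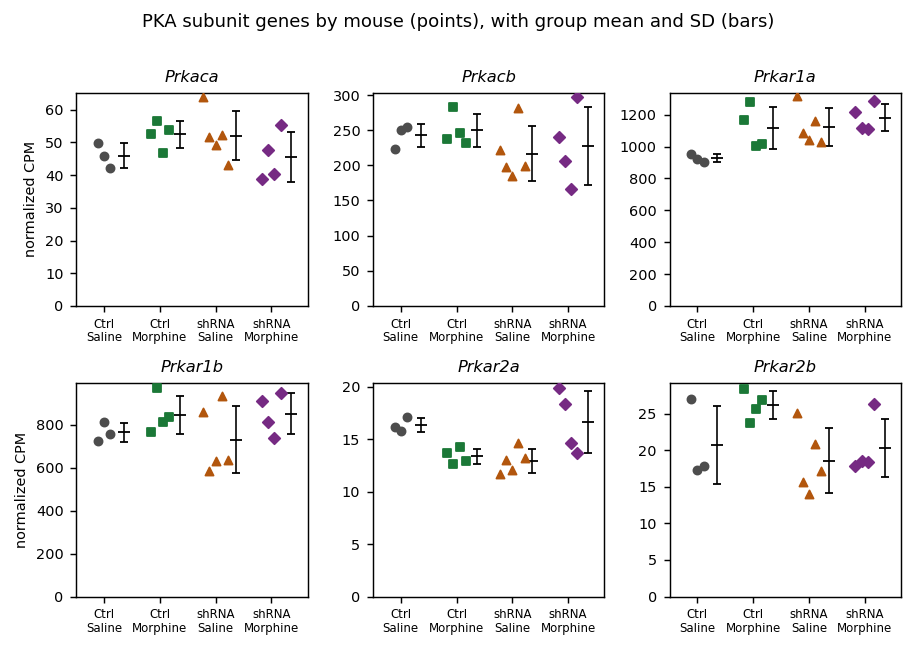
Normalized CPM (y axes) of the 6 PKA subunit genes in each mouse (points) of the 4 groups (x axes), with the group mean and SD as bars. Prkar1a was lowest in the 3 Ctrl + Saline mice, and Prkar2a was higher in them than in the Ctrl + Morphine and Kdm7a-shRNA + Saline mice.

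Of the 15 A-kinase anchoring protein genes, 13 were tested and 1 passed. Akap9 encodes a very large scaffold of the centrosome and Golgi apparatus, also known at synapses as yotiao. It measured 18.4, 17.8 and 22.7 normalized CPM in Ctrl + Saline, 15.97, 19.5, 16.6 and 17.7 in Ctrl + Morphine, 9.54, 12.8, 11.97, 18.3 and 12.2 in Kdm7a-shRNA + Saline, and 15.9, 15.8, 10.4 and 14.0 in Kdm7a-shRNA + Morphine. Of the 9 shRNA mice, 8 lay below all 7 controls, the other being Kdm7a-shRNA + Saline replicate 4 at 18.3. The log2 fold change was -0.59 under saline (SE 0.187, adjusted p = 0.0324), -0.32 under morphine (SE 0.184, adjusted p = 0.291) and -0.46 on average (SE 0.131, adjusted p = 0.0149, short of the fold threshold). The call under saline was among the least steady: it was lost in 6 of the 8 fits that left out a mouse, with adjusted p up to 0.147, namely without Ctrl + Saline replicate 2 or 3 or Kdm7a-shRNA + Saline replicate 1, 2, 3 or 5. Akap9 has the longest transcripts among the called members (median exonic length 13123 bases), and once a trend of fold change on transcript length was taken out its log2 fold change was -0.38. It lies on chromosome 5, plus strand, from 3928054 to 4081310, and shares exonic bases with Cyp51 on the other strand, so reads of the pair may be mixed if strand was not used.

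No other anchoring gene passed. Akap8l and Akap2 had the most reads of the class. Akap8l, a nuclear anchoring-protein homologue, was 101 to 159 in the 16 mice (log2 fold change -0.21, SE 0.134, under saline and 0.06, SE 0.131, under morphine). Akap2, which shares exons on its own strand with Pakap so that reads may be split between the names, was 36.5 to 62.5 (0.17, SE 0.168, and -0.08, SE 0.162). Akap11, which binds type II PKA and glycogen synthase kinase, measured 44.0, 44.1 and 42.7 normalized CPM in Ctrl + Saline, 37.2, 49.8, 35.5 and 39.8 in Ctrl + Morphine, 33.8, 29.7, 34.4, 42.9 and 31.1 in Kdm7a-shRNA + Saline, and 30.6, 33.7, 29.6 and 38.0 in Kdm7a-shRNA + Morphine. Of the 9 shRNA mice, 7 were below all controls, and the average log2 fold change was -0.32 (SE 0.0982, adjusted p = 0.0205), under the fold threshold. Akap5, the postsynaptic scaffold that ties PKA to glutamate receptors, had a log2 fold change of -0.56 under saline (SE 0.213, adjusted p = 0.0721) and -0.02 under morphine (SE 0.21).

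The phosphodiesterases that degrade cAMP alone were 8 genes, and Pde8b passed. PDE8B is a high-affinity, rolipram-insensitive enzyme with expression in brain and endocrine tissue. It measured 21.8, 20.5 and 19.5 normalized CPM in Ctrl + Saline, 22.2, 28.1, 25.7 and 26.1 in Ctrl + Morphine, 35.96, 28.5, 31.8, 30.0 and 29.5 in Kdm7a-shRNA + Saline, and 27.6, 23.0, 28.0 and 28.7 in Kdm7a-shRNA + Morphine. The 3 Ctrl + Saline mice were the lowest of all, and the 5 Kdm7a-shRNA + Saline mice lay above every control mouse. The log2 fold change under saline was 0.60 (SE 0.126, a 1.51-fold difference, adjusted p = 0.00417), against 0.07 under morphine (SE 0.119, adjusted p = 0.749), and the difference between these was -0.52 (SE 0.173, adjusted p = 0.25), which did not pass. Its fold change sat at the threshold of 1.5, so that 5 of 10 alternative settings put it under that line (log2 fold changes from 0.46 to 0.61, all adjusted p at or below 0.0155), as did leaving out Ctrl + Saline replicate 3 (0.54) or Kdm7a-shRNA + Saline replicate 1 (0.54). Pde8b lies on chromosome 13, minus strand, from 95024454 to 95250336.

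The PDE4 genes, whose enzymes are the targets of rolipram and the main cAMP-degrading activity of many neurons, did not pass. Pde4a measured 34.8, 39.2 and 27.3 normalized CPM in Ctrl + Saline, 35.6, 49.8, 35.2 and 36.4 in Ctrl + Morphine, 28.3, 18.4, 21.7, 45.1 and 25.8 in Kdm7a-shRNA + Saline, and 27.7, 26.3, 20.6 and 40.0 in Kdm7a-shRNA + Morphine. The 3 lowest mice were Kdm7a-shRNA + Saline replicates 2 and 3 and Kdm7a-shRNA + Morphine replicate 3, and the groups overlapped (log2 fold change -0.28, SE 0.249, under saline and -0.46, SE 0.242, under morphine). Pde4b was -0.38 under saline (SE 0.172, adjusted p = 0.127) and 0.24 under morphine (SE 0.169, adjusted p = 0.395). Pde4c, Pde4d, Pde7a, Pde7b and Pde8a were all below 7 normalized CPM in every mouse and none passed.

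Among the 8 phosphodiesterases that take both cAMP and cGMP, 6 were tested. Pde3b, a cGMP-inhibited enzyme best known from fat and immune cells, passed in the averaged comparison. It measured 5.82, 5.27 and 6.49 normalized CPM in Ctrl + Saline, 5.09, 3.95, 4.02 and 5.99 in Ctrl + Morphine, 5.97, 8.41, 12.8, 5.74 and 7.24 in Kdm7a-shRNA + Saline, and 9.19, 6.47, 17.8 and 3.76 in Kdm7a-shRNA + Morphine. The values stood highest in Kdm7a-shRNA + Morphine replicate 3 and Kdm7a-shRNA + Saline replicate 3, 5 of the 9 shRNA mice were above every control, and Kdm7a-shRNA + Morphine replicate 4 was the lowest of the 16. The average log2 fold change was 0.72 (SE 0.26, adjusted p = 0.0472), from 0.46 under saline (SE 0.375, adjusted p = 0.414) and 0.99 under morphine (SE 0.359, adjusted p = 0.0914). The call was kept in 4 of the 16 fits that left out a mouse, namely without Kdm7a-shRNA + Saline replicate 1 or 4 or Kdm7a-shRNA + Morphine replicate 2 or 4, and was lost in the other 12. Without Kdm7a-shRNA + Morphine replicate 3 the log2 fold change fell to 0.44 (adjusted p up to 0.141 over these fits). The mice with the most Pde3b were those with the largest microglial sums, 1866 and 2046, and the part of microglia in it was not tested. Pde3b lies on chromosome 7, plus strand, from 114415281 to 114539251.

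Pde1b, a calcium-calmodulin dependent phosphodiesterase enriched in striatal spiny neurons, passed under saline. It measured 27.0, 19.2 and 18.9 normalized CPM in Ctrl + Saline, 31.1, 32.4, 25.2 and 37.1 in Ctrl + Morphine, 39.1, 43.9, 25.8, 27.7 and 40.7 in Kdm7a-shRNA + Saline, and 32.0, 28.9, 22.2 and 27.6 in Kdm7a-shRNA + Morphine. Ctrl + Saline replicates 2 and 3 were the lowest mice, Ctrl + Saline replicate 1 (27.0) overlapped Kdm7a-shRNA + Saline replicate 3 (25.8), and the highest values were in Kdm7a-shRNA + Saline replicates 2, 5 and 1. The log2 fold change was 0.71 under saline (SE 0.198, a 1.63-fold difference, adjusted p = 0.0182), -0.19 under morphine (SE 0.186, adjusted p = 0.566) and 0.54 for morphine in control mice (SE 0.205, adjusted p = 0.294). Without Ctrl + Saline replicate 2 or 3 the call was lost, with adjusted p up to 0.11. The sum of 12 spiny neuron markers, among them Drd1, Adora2a, Penk and Ppp1r1b, also varied, at 180.3, 158 and 148 normalized CPM in Ctrl + Saline, 245, 219, 201 and 215 in Ctrl + Morphine, 145, 273, 108, 161 and 261 in Kdm7a-shRNA + Saline, and 199, 198, 150.0 and 165 in Kdm7a-shRNA + Morphine. Kdm7a-shRNA + Saline replicates 2 and 5, which had the most Pde1b, also had the largest sums (273 and 261), whereas replicate 1 had 145. Ppp1r1b, also on the list of PKA inhibitors and other cAMP effectors read below, was 43.4 to 64.5 in Ctrl + Saline and 84.2 to 119 in Ctrl + Morphine. Drd1, Adora2a and Penk overlapped between these groups. Of the 12 markers 9 were tested and none passed, and Isl1 was at 0 in 12 of the 16 mice and close to it in the rest. Their part in the Pde1b values was not tested. Pde1b lies on chromosome 15, plus strand, from 103503034 to 103530052.

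Pde2a, a cGMP-stimulated enzyme that lets cGMP lower cAMP in cortical and hippocampal neurons, was lower by adjusted p but short of the fold threshold. It measured 134, 100.3 and 115 normalized CPM in Ctrl + Saline, 149, 150.2, 124 and 156 in Ctrl + Morphine, 98.01, 66.6, 58.2, 107 and 61.6 in Kdm7a-shRNA + Saline, and 101, 103, 71.6 and 116 in Kdm7a-shRNA + Morphine. The 5 shRNA mice Kdm7a-shRNA + Saline 1, 2, 3 and 5 and Kdm7a-shRNA + Morphine 3 were below every control, and the other four overlapped the Ctrl + Saline range. Against their own controls, all 4 Kdm7a-shRNA + Morphine mice (71.6 to 116) lay below the 4 Ctrl + Morphine mice (124 to 156). The log2 fold change was -0.57 under saline (SE 0.192, adjusted p = 0.0442), -0.57 under morphine (SE 0.189, adjusted p = 0.0653) and -0.57 on average (SE 0.135, adjusted p = 0.00458), while the threshold of 1.5-fold is 0.58. It passed as lower in 5 of the 10 alternatives under saline and 5 of the 8 for the average (log2 fold changes down to -0.70 and -0.68). These were library size only, at least 10 counts in every mouse, annotated and long noncoding RNA genes only, the replicate block, and a length trend removed. The sum of 5 excitatory neuron markers (Slc17a7, Camk2a, Neurod2, Neurod6 and Tbr1) was 1079, 1413 and 1004 normalized CPM in Ctrl + Saline, 984, 1530.1, 1161 and 1177 in Ctrl + Morphine, 965, 693, 746, 1184 and 689 in Kdm7a-shRNA + Saline, and 893, 859.9, 837 and 1456 in Kdm7a-shRNA + Morphine. It was lowest in Kdm7a-shRNA + Saline replicates 5, 2 and 3, where Pde2a was 61.6, 66.6 and 58.2. Camk2a and Slc17a7 made up most of this sum. From Ctrl + Saline to Kdm7a-shRNA + Saline, Camk2a went from 652 to 1099 down to 383 to 728, while Slc17a7 was 266 to 372 and 244 to 449. Of the 5 markers, 2 had a fitted value above 0 and 3 below under saline. Under morphine all 5 were below 0, and none passed under either condition. The part of neuron number in Pde2a was not tested. Pde2a shares exons on its own strand with the protein-coding gene Gm45837, whose level was 1.95 to 2.06 times that of Pde2a in every mouse and whose average log2 fold change was -0.55, so the pair cannot be told apart as separate genes.

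Pde1a, with Pde2a the most read of this class, was 103 to 224 in the 16 mice, and its 3 lowest values were in the same Kdm7a-shRNA + Saline replicates 2, 3 and 5. Its log2 fold change was -0.22 under saline (SE 0.227, adjusted p = 0.521) and -0.28 under morphine (SE 0.221, adjusted p = 0.462). Pde10a, the dual enzyme that dominates striatal spiny neurons, was 11.1 to 28.1 and did not pass.

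Of the 8 genes named for cGMP phosphodiesterases, 3 were tested, Pde5a, Pde6d and Pde9a, and Pde5a did not pass in any comparison. Pde6d passed, but it encodes a prenyl-binding chaperone that carries lipid-modified proteins to cilia and membranes and does not degrade a cyclic nucleotide. It measured 29.5, 10.3 and 6.89 normalized CPM in Ctrl + Saline, 40.0, 35.3, 38.2 and 37.8 in Ctrl + Morphine, 40.6, 37.7, 36.5, 41.2 and 43.1 in Kdm7a-shRNA + Saline, and 25.1, 41.8, 30.6 and 19.6 in Kdm7a-shRNA + Morphine. Ctrl + Saline replicates 2 and 3 stood apart from the other 14 mice, which were between 19.6 and 43.1, while Ctrl + Saline replicate 1 was within that range. The log2 fold change was 1.36 for knockdown under saline (SE 0.327, a 2.57-fold difference, adjusted p = 0.00843), 1.29 for morphine in control mice (SE 0.336, adjusted p = 0.155), and -0.37 for knockdown under morphine (SE 0.296, adjusted p = 0.474). Both of the larger values were taken against the same 3 mice. Without Ctrl + Saline replicate 2 or 3 the knockdown call was lost (log2 fold change 1.13 and 0.99, adjusted p up to 0.0564), and without replicate 1 the log2 fold change was 2.16. Pde6d lies on chromosome 1, minus strand, from 86542994 to 86582629.

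Pde9a encodes the high-affinity cGMP phosphodiesterase of neurons. It measured 11.9, 10.3 and 11.3 normalized CPM in Ctrl + Saline, 14.6, 17.9, 17.8 and 19.7 in Ctrl + Morphine, 12.3, 16.2, 10.8, 12.6 and 15.9 in Kdm7a-shRNA + Saline, and 10.4, 10.9, 15.7 and 13.4 in Kdm7a-shRNA + Morphine. The 4 Ctrl + Morphine mice lay above the 3 Ctrl + Saline mice without overlap. Its log2 fold change was 0.65 for morphine in control mice (SE 0.183, adjusted p = 0.168) and -0.46 for knockdown under morphine (SE 0.166, adjusted p = 0.0861), and neither passed. Pde4dip and Pde12 also matched by symbol. Pde4dip encodes myomegalin, a scaffold that binds PDE4D, and Pde12 a mitochondrial enzyme that trims poly(A), and their log2 fold changes under saline were 0.01 (SE 0.133) and 0.50 (SE 0.297, adjusted p = 0.249), that of Pde12 with exonic bases shared with Arf4 on the other strand.

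In the nucleus, Crem was the member with the clearest knockdown difference. It measured 19.4, 35.0 and 36.3 normalized CPM in Ctrl + Saline, 32.2, 37.3, 32.9 and 23.96 in Ctrl + Morphine, 51.8, 44.9, 59.1, 66.1 and 39.8 in Kdm7a-shRNA + Saline, and 43.5, 46.6, 46.1 and 52.5 in Kdm7a-shRNA + Morphine. All 9 Kdm7a-shRNA mice (39.8 to 66.1) lay above all 7 Ctrl mice (19.4 to 37.3), and Crem was the only 1 of the 54 members whose shRNA and control mice did not overlap (1.85% of the members, against 4.37% of all entries and 2.76% of annotated genes). The log2 fold change was 0.79 under saline (SE 0.204, a 1.73-fold difference, adjusted p = 0.0127), 0.58 under morphine (SE 0.193, adjusted p = 0.0668) and 0.68 on average (SE 0.14, a 1.61-fold difference, adjusted p = 0.00164). The difference between the saline and morphine values was -0.21 (SE 0.277, adjusted p = 0.851). Morphine did not separate the groups within either virus, with log2 fold changes of 0.06 (SE 0.21) in control and -0.15 (SE 0.181) in shRNA mice. The control with the least Crem, Ctrl + Saline replicate 1, carried the call under saline: without it the log2 fold change was 0.52 (adjusted p = 0.0734), and the average was 0.55, below the fold threshold. The gene-level count sums the activator, repressor and ICER transcripts, so which of them differed was not measured here. Crem transcripts are short among the members (median exonic length 1160 bases), and with a trend on transcript length removed the value under saline was 0.59 (adjusted p = 0.0622).

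The other genes of the family did not pass. Creb1, the namesake of the family, measured 10.4, 16.5 and 12.1 normalized CPM in Ctrl + Saline, 8.79, 11.6, 10.96 and 10.5 in Ctrl + Morphine, 9.54, 7.37, 10.9, 13.7 and 13.6 in Kdm7a-shRNA + Saline, and 12.3, 15.6, 11.2 and 9.53 in Kdm7a-shRNA + Morphine. Its groups overlapped, with log2 fold changes of -0.24 (SE 0.213, adjusted p = 0.448) under saline and 0.21 (SE 0.209, adjusted p = 0.564) under morphine. The coactivator genes Crtc1, Crtc2 and Crtc3, whose proteins enter the nucleus when calcium and cAMP rise, had log2 fold changes under saline of 0.38 (SE 0.205), 0.08 (SE 0.229) and 0.36 (SE 0.241), and under morphine of 0.00 (SE 0.195), -0.08 (SE 0.222) and 0.04 (SE 0.234). Atf1, a close relative of Creb1, was at 0.132 to 1.68 in the 16 mice, too low for its difference to be read (log2 fold change 0.18, SE 0.559, under saline).

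**Figure D4:**
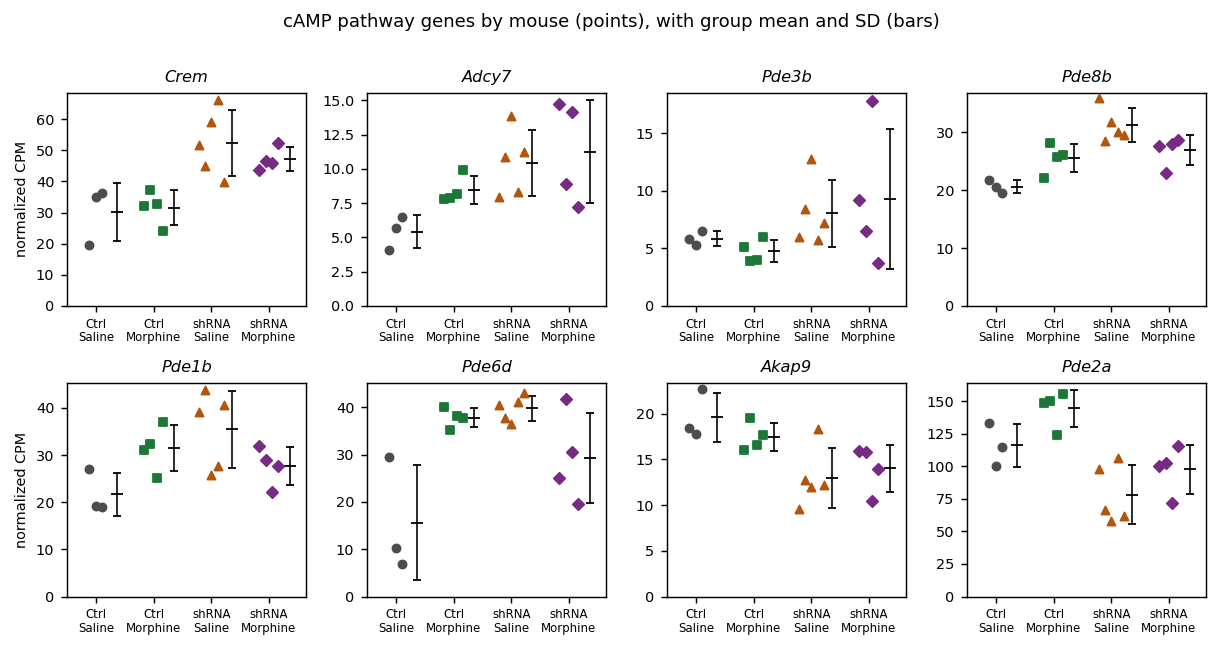
Normalized CPM (y axes) in each mouse (points) of the 4 groups (x axes) for the 7 members that passed in a comparison and Pde2a, with the group mean and SD as bars. The shRNA and control mice of Crem do not overlap, 2 of the 3 Ctrl + Saline mice of Pde6d lie far below the rest, and Pde3b is highest in 2 of the shRNA mice.

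Morphine itself moved no member past the threshold. In control mice 0 of the 54 members passed in Ctrl + Morphine against Ctrl + Saline (0.0% of all genes did), and at an unadjusted p below 0.05 there were 9, 16.7% against 11.7% of all entries and 12.6% of annotated genes, 8 of them higher. They were Pde6d, Pde9a, Pde1b, Adcy2, Adcy7, Pde8b, Prkar1a and Akap1, higher, and Pde4b, lower (log2 fold change -0.40, SE 0.181, adjusted p = 0.398). The median over the members was 0.10, beside -0.01 over all entries and 0.04 over annotated genes, and the smallest adjusted p was 0.155, for Pde6d. DESeq2 and edgeR's exact test each called Pde6d alone, as did the fit without Ctrl + Saline replicate 1. In shRNA mice, Kdm7a-shRNA + Morphine against Kdm7a-shRNA + Saline, 0 members passed (0.00531% of all genes) and 3 had an unadjusted p below 0.05 (5.56% against 7.02%), Adcy9, Prkar2a and Akap8l. Adcy9, a cyclase with little response to forskolin, measured 12.4, 11.7 and 9.80 normalized CPM in Ctrl + Saline, 11.2, 16.4, 15.3 and 12.5 in Ctrl + Morphine, 4.48, 6.45, 7.46, 11.7 and 7.94 in Kdm7a-shRNA + Saline, and 12.4, 10.4, 11.1 and 16.4 in Kdm7a-shRNA + Morphine. Its log2 fold change was 0.72 (SE 0.22, adjusted p = 0.561), and only Kdm7a-shRNA + Saline replicate 4 (11.7) reached into the range of the Kdm7a-shRNA + Morphine mice. DESeq2 and edgeR's exact test made no call there either. In the test of whether the knockdown difference depended on morphine, 0 members passed (0.085% of all genes), and 6 had an unadjusted p below 0.05 (11.1% against 10.7%): Pde6d, Pde1b, Pde9a and Pde8b with a negative and Prkar2a and Pde4b with a positive term. Pde6d alone was called there by DESeq2 and, without Ctrl + Saline replicate 1, by edgeR. That test, morphine in control mice and knockdown under saline all use the same 3 Ctrl + Saline mice. A gene that recurs in these lists is therefore not separate evidence.

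Genes up and down the pathway were read from lists set beside the members. Their counts can be set beside the 12% of annotated genes that passed under saline and the 4.64% under morphine. Of 6 G protein genes, 1 passed under saline, Gnai2, which encodes an inhibitory subunit also abundant in microglia (log2 fold change 0.76, SE 0.215, adjusted p = 0.02), and none under morphine. Of 10 tested genes for PKA inhibitors and other cAMP effectors, 3 passed under saline, all higher: Hcn2, a pacemaker channel opened by cAMP (1.63, SE 0.306, adjusted p = 0.00205), Pkib, a PKA inhibitor (1.27, SE 0.365, adjusted p = 0.021), and Rapgef3, the cAMP-activated exchange factor Epac1 (1.01, SE 0.332, adjusted p = 0.0402). Rapgef3 was highest in Kdm7a-shRNA + Morphine replicate 3 (35.6) and Kdm7a-shRNA + Saline replicates 2, 3 and 5 (33.8, 33.7 and 30.8), the mice with the largest microglial and astrocyte sums. The sum of 5 endothelial markers (Cldn5, Pecam1, Flt1, Vwf and Slco1a4), none at 0 and 3 of them called higher under saline, was 66.6 to 97.01 in Ctrl + Saline and 106 to 142 in Kdm7a-shRNA + Saline. Under morphine the sums overlapped, at 77.8 to 99.2 in Ctrl + Morphine and 83.5 to 180 in Kdm7a-shRNA + Morphine. The part of endothelial cells in Rapgef3 was not tested. Hcn2 measured 3.70, 2.34 and 1.32 normalized CPM in Ctrl + Saline, 3.69, 3.52, 3.29 and 3.85 in Ctrl + Morphine, 9.08, 8.53, 9.72, 6.30 and 4.52 in Kdm7a-shRNA + Saline, and 4.29, 4.44, 6.10 and 6.71 in Kdm7a-shRNA + Morphine. Every shRNA mouse was above every control, and 4.37% of all entries and 2.76% of annotated genes had no overlap in either direction. Pkib shared with Pde6d its low Ctrl + Saline replicates 2 and 3, at 2.24 and 1.99 beside 7.67 in replicate 1. None of the 10 passed under morphine, where Hcn2 had an adjusted p of 0.192. Of 9 genes for CREB cofactors, CRTC kinases and their calcium-dependent regulators, none passed under either condition.

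Of 20 genes known as CREB targets, 6 passed under saline, 1 higher and 5 lower, and 1 passed under morphine, beside 12% and 4.64% of annotated genes. The neuropeptide gene Sst measured 267, 203 and 246 normalized CPM in Ctrl + Saline, 275, 235, 254 and 279.9 in Ctrl + Morphine, 128, 94.5, 80.0, 152 and 86.9 in Kdm7a-shRNA + Saline, and 135, 115, 117 and 157 in Kdm7a-shRNA + Morphine. All 9 shRNA mice were below all 7 control mice, while 4.37% of all entries and 2.76% of annotated genes had no overlap in either direction. Sst fell under both conditions (log2 fold change -1.14, SE 0.175, adjusted p = 0.000609 under saline, and -0.99, SE 0.175, adjusted p = 0.00412 under morphine), and Vip, the peptide of another interneuron class, fell under saline (-0.92, SE 0.21, adjusted p = 0.00659). Also under saline, Ppargc1a, a coactivator of mitochondrial genes, fell (-0.80, SE 0.248, adjusted p = 0.0295), and Gadd45b, a stress and activity gene, rose (0.89, SE 0.267, adjusted p = 0.0255). Fos and Nr4a1, both early activity genes and added here to complete the count, were the other lower targets under saline (-0.86, SE 0.287, adjusted p = 0.0419, and -0.69, SE 0.235, adjusted p = 0.0456). Under morphine Sst alone passed, and Ppargc1a, Fos and Nr4a1 overlapped between the groups. Ppargc1a was 2.78 to 5.29 normalized CPM in Ctrl + Morphine and 4.04 to 7.11 in Kdm7a-shRNA + Morphine. Fos was 21.9 to 37.3 and 23.5 to 69.9, and Nr4a1 65.2 to 103 and 56.0 to 136. The Ctrl + Saline mice, at 45.3 to 54.8, held more Fos than the Ctrl + Morphine mice. Sst and Vip are interneuron genes, and the sum of 6 other interneuron markers (Gad1, Gad2, Slc32a1, Pvalb, Lhx6 and Dlx1) was 199.7 to 217 in Ctrl + Saline and 204 to 239 in Kdm7a-shRNA + Saline, with 2 of the 6 called higher and 1 lower. It was 198 to 258 in Ctrl + Morphine and 221 to 301 in Kdm7a-shRNA + Morphine. Gad1 and Pvalb made up most of it, and its genes differed in direction. From Ctrl + Saline to Kdm7a-shRNA + Saline, Pvalb went from 52.3 to 58.7 up to 69.7 to 114. Slc32a1 was also higher and Gad2 lower (10.9 to 13.0 and 4.27 to 9.67), while Gad1, Lhx6 and Dlx1 overlapped. The part of interneuron number in Sst and Vip was not tested. Over the 20 targets the median log2 fold change was -0.25 under saline and -0.01 under morphine, beside 0.10 and 0.04 over annotated genes.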

How the data were processed

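Full-length cDNA from the mPFC of 16 mice was sequenced by nanopore. The authors kept reads above a minimum quality and length, clustered them on mm10 with minimap2 and Pinfish, and deposited read counts per gene and CPM, which equal each count scaled to its column total within 4.99e-06. Strand use in counting is not given in the sources used here. The counts of all 16 mice were fitted with edgeR 4.0.16 in R 4.3.3 (filterByExpr, TMM factors, a coefficient per group, quasi-likelihood test), with p-values adjusted by Benjamini-Hochberg over 18826 genes and a pass at adjusted p below 0.05 and 1.5-fold. Fold changes are on the fitted log2 scale, and normalized CPM are CPM of the TMM-scaled library. The common biological coefficient of variation was 0.215. On simulated data for knockdown under saline with the 18826 genes, 48% and 40% of genes changed by -1 and 1 on the log2 scale were recovered, and 74% and 90% at -2 and 2. Far fewer genes were changed there than the 3821 with adjusted p below 0.05 in the real comparison. The adjustment differs with that number, so these shares do not give the recovery in the real data. The labels number the mice within each group and state nothing more of how separate they are, so p-values measure the spread between these libraries. Deviations of same-numbered Ctrl + Morphine and Ctrl + Saline mice had correlations of 0.110 to 0.207 over 3 pairs. A differently numbered pair, Ctrl + Saline 3 with Ctrl + Morphine 4, reached 0.133. Same-numbered knockdown pairs had both signs (-0.08 to 0.12 under saline, -0.04 to 0.08 under morphine), and a differently numbered pair under morphine reached 0.276. Same-numbered pairs of the shRNA groups ranged from -0.10 to 0.39, the largest being those of replicates 3 (0.39) and 4 (0.36). Differently numbered pairs of these groups ranged from -0.47 to 0.23, so those same-numbered pairs were above all of them.

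Members and gene lists were chosen with earlier results of these data known. Named were members that passed in a comparison, all PKA subunit and CREB family genes, the most read pair of each class, the 3 members with the smallest p for morphine in control mice, and at most 4 genes of each pathway list that passed. Adcy6, Adcy9, Adcy10, Akap5, Akap11, Pde4b, Pde10a, Fos, Nr4a1 and other members named only for an unadjusted p were added after their values were seen. A single marker each of microglia and excitatory neurons is not reported here and was left out of its list. Positions and median exonic lengths came from GENCODE vM21 on GRCm38 and promoters from RefSeq. Alternatives were RLE and library-size scaling, other count filters, the groups of a comparison alone, DESeq2 1.42.0, edgeR's exact test, a replicate block, annotated genes with annotated long noncoding RNA genes only, a length trend removed, and each mouse left out.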

Additional observations from a re-analysis of the deposited data

Results flagged for a closer look

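Values far from the rest of their group were looked for in 84 groups of 4 or 5 mice (28 genes), where chance flags about 1 in 20, and 5 were found. Ctrl + Morphine replicate 2 stood high for Adcy1 (61.2 normalized CPM beside 34.4 to 37.0) and for Pde4a (49.8 beside 35.2 to 36.4). In the same group, Adcy7 stood high in replicate 4 (9.95 beside 7.79 to 8.16) and Akap8l stood low in replicate 1 (104 beside 133 to 138). In Kdm7a-shRNA + Morphine, Prkar2b stood high in replicate 4 (26.3 beside 17.9 to 18.6), the mouse with the lowest microglial sum of its group (482). None of the 5 values belongs to a comparison in which its gene passed, apart from the average over saline and morphine for Adcy7.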

How the results depend on the processing

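No log2 fold change of a called member changed sign under any alternative that was run. The count of members called for morphine in control mice moved from 0 to 1 with DESeq2 and with edgeR's exact test, and from 0 to 1 over the fits that left out a mouse, Pde6d in each case, reached without Ctrl + Saline replicate 1. For knockdown under saline the 6 calls ranged from 2 to 9 with a mouse left out, the most without Kdm7a-shRNA + Saline replicate 4 and the fewest without Ctrl + Saline replicate 3 (2) or 2 (3). Knockdown under morphine moved from 0 to 1 with library size only (Pde2a) and with DESeq2 (Crem), and from 0 to 2 with a mouse left out, the most without Kdm7a-shRNA + Morphine replicate 4. The test of whether knockdown depended on morphine moved from 0 to 1 with DESeq2 and, without Ctrl + Saline replicate 1, from 0 to 1. The averaged knockdown count of 3 became 7 by adjusted p alone and 1 with library size only, and ranged from 1 to 4 with a mouse left out, the fewest without Ctrl + Saline replicate 1. Morphine in shRNA mice gave 0 throughout. With the replicate block, Pde2a joined the calls of knockdown under saline (7 members) and of the average (4 members), and no call was lost. In all, 137 recomputed single-gene values kept their call and 43 lost it, 113 recomputed counts were within 1.5 times the reported count (knockdown under saline gave 4 with the groups of that comparison alone and with a length trend removed, and 7 by adjusted p alone and with library size only) and 13 were not, and the cause of these moves was not tested, beyond the fewer mice in the fits that left a mouse out. Depth limits the reading of Atf1, Adcy10, Pde4c, Akap17b and Pde12, the tested members at or below 3.60 normalized CPM in every mouse.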

Other observations

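The 9 members too scarce to be tested were Akap3, Akap14, Pde3a, Pde11a and the Pde6a, Pde6b, Pde6c, Pde6g and Pde6h genes of the retinal cGMP phosphodiesterase. Over all 16 mice together they held between 1 read (Pde6a) and 72 reads (Pde6h). By transcript length, the median log2 fold change of annotated genes for knockdown under saline went from 0.19 in 2699 genes of up to 1500 bases to -0.12 in 805 genes over 7000 bases, while the 10 tested members over 7000 bases had a median of 0.05.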
